A study of Canis lupus familiaris and Eptesicus fuscus and Equus caballus with 6 samples.

Results

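The small RNA library of adult testis of the big brown bat (Eptesicus fuscus) held 635917 distinct sequences, of 7533876 listed over the small RNA files of the series, which were made from 3 species. Every sequence of the bat file was taken, and a sequence found again on another of its 636364 rows was summed, which affected 447 rows. It was 1 of 6 libraries, a small RNA and an mRNA library from testis of bat, dog and horse, and it had no replicate and no treated group. The RNA came from snap-frozen tissue, and its small fraction was read for 50 nt from one end on an Illumina instrument. The file gave 5828928 reads, of 24 to 32 nt only, against 41328689 in the dog file and 35830283 in the horse file. Shares below carry exact (Clopper-Pearson) 95% binomial intervals, which cover counting error only, because PCR copies cannot be told from separate molecules and there was no second bat.

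PIWI-interacting RNAs (piRNAs) are germline small RNAs that guide PIWI proteins to transposon and other transcripts. Their precursors are long single-stranded RNAs, the mature 5′ end usually carries U, and the 3′ end is trimmed until the PIWI protein shields it, so that 1 piRNA comes in several lengths. In the ping-pong cycle a PIWI protein cuts its target opposite the guide's bases 10 and 11, and the cut end becomes the 5′ end of a partner, so the 5′ ends of both overlap by 10 nt and U at position 1 of one faces A at position 10 of the other. Fragments of ribosomal and transfer RNA are also recovered with small RNA fractions.

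The file lists each sequence on 1 strand only: 0 sequences were listed together with their own reverse complement, and known RNAs appeared on either strand. Length variants could still stand on opposite strands: 16974 sequences (2.67%), with 8.04% of the reads, had a reverse complement that shared its first or last 24 nt with another listed sequence, and such variants were not linked to each other. Strand was therefore assigned from the length variants. Each sequence was joined, step by step, with the most read one that had the same first or last 24 nt, and a linked group was oriented where at least 80% of at least 10 variant reads shared one end, which was taken as the 5′ end. A fixed 5′ end and a varying 3′ end are thus built into the groups and are no finding.

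Only oriented groups were ranked, and those whose leading sequence matched a listed ribosomal, transfer or micro RNA were left out. Groups whose leading sequence lay within 2 mismatches of a listed ribosomal or transfer RNA were left out too. Among the remaining groups, the most read held 4.88% of all reads and the 10 most read together held 11.6%. Their leading sequences are shown because they carry so much of the library. They are written 5′ to 3′ on the strand that the rule assigned, with T for U. Positions 1 and 10, where the ping-pong bases would stand, are in capitals.
group 1: TtgcgttttCtggacctagaactgtcaga
group 2: TgtctgctgGaccaagttctcttgttcagg
group 3: TtgatggtaAttggaagaacttttggagtg
group 4: GacttcagaGaatggactgttttttcctgg
group 5: CatcagtccCgtcttgaaacaatt
group 6: GataggctcTgtgtgtccaaatcaccatca
group 7: TggaaaattAcgatgctttgaacgtgtgt
group 8: TcactgtctTtgaggacctctgagccagc
group 9: CagtctccgTagagaccgtcaaaaat
group 10: TttgaagggAgcatttgtggactctgttc
On the assigned strand, 6 of these 10 leading sequences begin with U and 3 have A at position 10. The lengths lie at 29 or 30 nt in 8 groups, the exceptions being group 5 at 24 nt and group 9 at 26 nt. The strand of these groups was not checked, because the list held ribosomal, transfer and micro RNA only. Where the 3′ end is the fixed one, the rule gives the wrong strand, as for 5S rRNA (9.70% of oriented reads assigned correctly). Other RNAs of that kind could be among the 10, with 5′ and 3′ ends exchanged.

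Group 1 had 284291 reads in 76 sequences, and its 29-nt leading sequence alone had 253037, which was 4.34% of the library (4.32 to 4.36%). Of the reads that shared its 5′ end, 90.6% were 29 nt long and 6.22% were 28 nt long. Group 2 had 96967 reads and came in a pair of lengths of nearly equal abundance, 45523 reads at 30 nt and 45500 at 31 nt. Group 6, with 37539 reads, was likewise divided between 30 nt (53.7%) and 31 nt (45.9%). On the assigned strand, these 3 groups differ in how the 3′ end was set: at 1 position in group 1, and at 2 neighbouring positions in groups 2 and 6.

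The remaining groups spread more widely or lay at other lengths. Group 3 (50381 reads) had 65.0% of its 5′ end's reads at 30 nt and 25.4% at 29 nt, and group 4 (44962 reads) had 82.6% at 30 nt. Group 5 (43479 reads) had 96.2% at 24 nt, the shortest length listed, so any shorter forms could not be seen. Groups 7 and 8 (34394 and 29679 reads) peaked at 29 nt, with 63.5% and 60.7%, and had their next share at 30 nt. Group 9 (28131 reads) had its peak of 35.1% at 26 nt, with 25.4% at 27 nt, 18.7% at 32 nt and 14.9% at 24 nt, the widest spread among the 10. Group 10 (26538 reads) had 62.5% at 29 nt and 18.3% at 31 nt. Every length from 24 to 32 nt was listed for each of the 10, and their letters matched the leading sequence. The first 24 nt matched by definition, so only later letters could differ, and for group 5, led by 24 nt, none could.

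**Figure D1:**
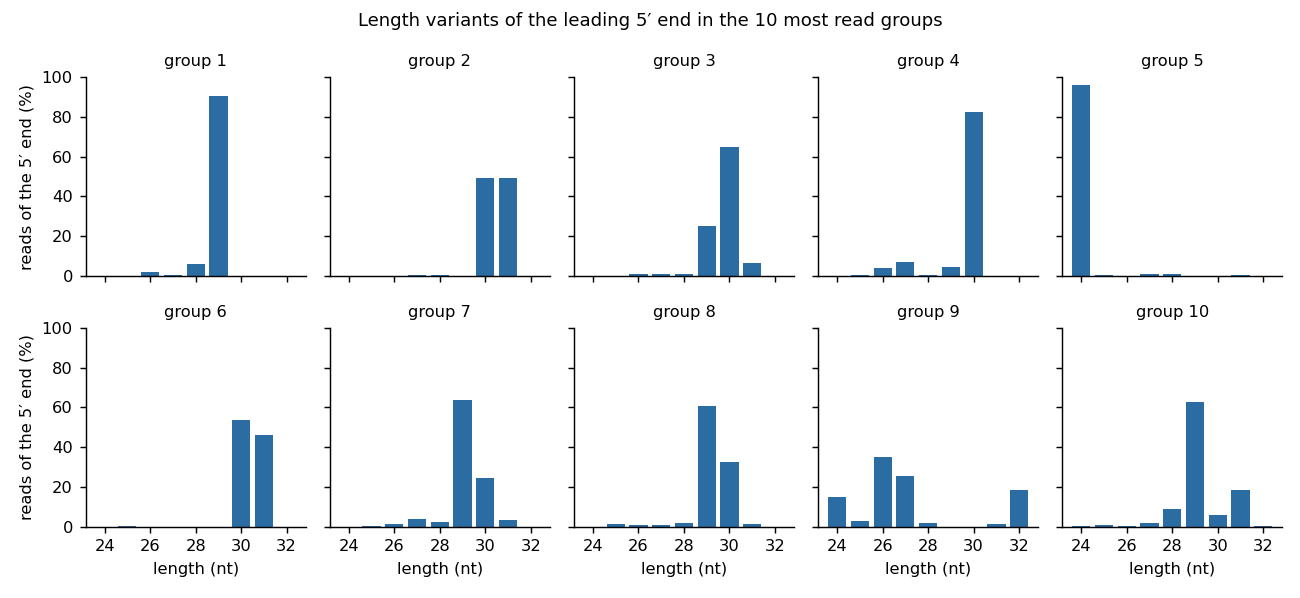
Bars give the share of reads (%) at each length from 24 to 32 nt among the reads that share the leading 5′ end. The 10 groups are the most read oriented ones left after the listed RNAs. Group 1 stands at 29 nt with 90.6%, groups 2 and 6 are divided between 30 and 31 nt, and group 9 is spread over several lengths. Group 5 stands at 24 nt, the shortest length listed, with 96.2%.

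The leading sequences of 8 of the 10 groups had 0 reads in both the dog and the horse file, where 3 reads would be 7.26e-06% and 8.37e-06% of the reads. Group 5 had 1 read in horse. Group 10 had 16334 reads in bat, 970 in dog and 1031 in horse, so its 29-nt sequence was listed letter for letter in all 3 species. The bat, dog and horse files held 635917, 2937574 and 3971863 distinct sequences, and 7533876 when pooled. Few sequences, on the strand as listed, thus recurred between files at all. Absence from dog and horse was therefore usual and is not particular to these groups. The 10th most read sequence of 26 to 32 nt, with 23781 reads in bat and 0 in dog and horse, belonged to no oriented group and is given as listed.
unoriented: CctcaaagcTgcagtacaattcggagaaa

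Reads were concentrated in few sequences. The 10 most abundant held 11.2% of the reads, the 100 most abundant 24.5%, the 1000 most abundant 43.5% and the 10000 most abundant 67.8%. Of the 26 to 32 nt reads alone, the 1000 most abundant held 44.4%. A total of 1884 sequences, 0.296% of all, held 50% of the reads. At the other end, 65.6% of the sequences had a single read and together held 7.15% of the reads. The length distribution was narrow, with 28.9% of the reads at 29 nt and 28.6% at 30 nt, then 14.1% at 31 nt and 9.78% at 28 nt, and 94.5% lay within 26 to 32 nt, the size class used for piRNAs here. Single sequences set part of this profile: group 1's leading sequence was 15.04% of all 29-nt reads, group 5's was 24.9% of the 24-nt reads, and a 5S ribosomal RNA fragment was 24.7% of the 32-nt reads.

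**Figure D2:**
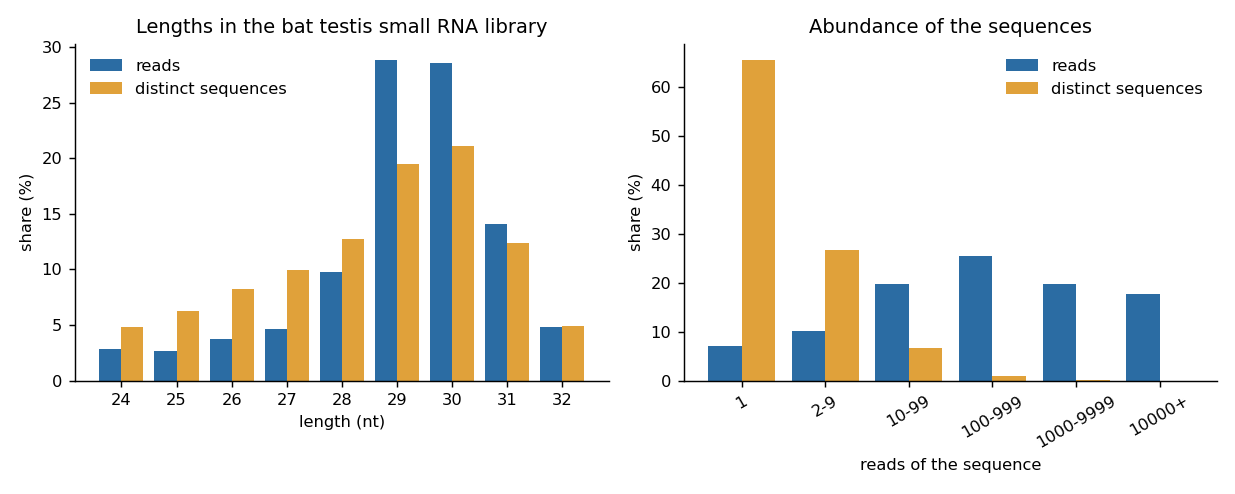
Left, share (%) of reads and of distinct sequences at each length in nt. Right, the same shares by the number of reads of a sequence. Reads peak at 29 and 30 nt (28.9% and 28.6%), and sequences with 1 read are 65.6% of the sequences but 7.15% of the reads.

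Linking gave 307360 groups, of which 72.7% were a single sequence with no variant, holding 4.36% of the reads. The 9464 groups of 10 or more sequences held 81.1% of the reads, and the largest had 111 sequences. Strand could be assigned for 62.9% of the 26 to 32 nt reads, 34.2% as listed and 28.7% as the reverse complement, but for only 18.3% of the sequences counted (9.31% as listed and 8.97% reversed). RNAs of known strand served as a check. All 15810 oriented miRNA reads and 99.4% of the 28247 oriented tRNA reads were assigned correctly, and 80.4% of the 28S reads, against 9.70% of the 349043 oriented 5S reads and 8.47% of the 18S reads. The rule thus put most of the oriented 5S and 18S reads on the wrong strand (of 27166 18S reads, 8787 were oriented). Groups that matched no listed RNA had no such check. The values below include the listed RNAs unless they are said to be without them.

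Among the oriented groups without listed RNAs, 3604 5′ ends had 100 or more reads and 2798033 reads in all. The letters of 99.7% of those reads followed the leading sequence of their end. The most frequent length was 29 nt for 31.6% of these ends and 30 nt for 36.6%, and 68.2% had one or the other. The median share of reads at an end's most frequent length was 56.5%. Ends of 100 to 999 reads had a median of 56.3% of their reads at the most frequent length (quartiles 45.0 and 70.0%), ends of 1000 to 9999 reads 57.4%, and the 28 ends of 10000 or more reads 72.1%. At 457 of the 3604 ends (12.7%) at least 80% of the reads had 1 length, and at 35.7% no length reached 50%. The neighbour that was next in share depended on the peak: where 29 nt led, a median of 10.53% of the reads were 1 nt longer and 7.97% 1 nt shorter, and where 30 nt led, 4.17% were longer and 12.1% shorter.

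Among these ends of 100 or more reads, the share that begin with U differed with the length of the peak. It was 36.7% (19.9 to 56.1%, 30 ends) where 24 nt led, 51.5% at 26 nt, 66.7% at 27 nt, 83.7% at 28 nt, 84.1% (81.9 to 86.2%, 1139 ends) at 29 nt, 82.7% at 30 nt, 80.3% at 31 nt and 70.8% (61.8 to 78.8%, 120 ends) at 32 nt. Ends at the edges of the size range thus began with U less often than those at its centre, with intervals that do not meet between 24 or 26 nt and 28 to 30 nt. Forms shorter than 24 nt are not listed, so ends led by 24 nt may peak at a shorter length. Counted over every oriented sequence without the listed RNAs, rare ones included, the order was not seen: 60.2% began with U at 24 nt, 60.6% at 26 nt, 61.3% at 28 nt, 57.2% at 29 nt, 56.0% at 30 nt and 61.8% at 32 nt. The share also differed with abundance: 27.9% of ends with 1 to 9 reads began with U, 67.7% with 10 to 99 reads, 81.0% with 100 to 999, 79.7% with 1000 to 9999 and 82.1% of the 28 with more. The orientation rule enters this order, because it asks for at least 10 variant reads, 80% of them at the leading end. The 27649 ends of 1 to 9 reads were therefore mostly secondary, shifted ends of the 10832 oriented groups, which took their strand from another end. Single sequences of oriented groups without the listed RNAs gave 41.4% for those with 1 read, 63.6% for 2 to 9 reads, 77.2% for 10 to 99 and 80.4% for 100 to 999, and then 76.1% (70.9 to 80.7%) for 1000 to 9999 and 86.4% (65.1 to 97.1%) for more. This is no separate support, since rare sequences were oriented mostly as members of groups led by a more read one. The rise up to about 100 reads thus sets leading ends against shifted ends in part, and is not shown to go with abundance itself. Beyond about 100 reads no rise was seen.

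By reads, U was the first base of 71.8% of the oriented 26 to 32 nt reads (71.7 to 71.8%). Without the listed RNAs it was 79.5%, and on the strand as listed, without orientation, 48.9%. The other positions of the oriented sequences without listed RNAs had U in 21.3 to 41.5% of the reads. To keep single abundant sequences from setting the profile, 1 leading sequence was taken for each 5′ end of 100 or more reads that had one of 26 to 32 nt, 3543 in all. U stood first in 81.5% of them (80.2 to 82.8%), against 15.9 to 30.03% at the other positions.

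After the first base, 2 positions stood apart. G was found at position 2 in 46.0% of the leading sequences (44.4 to 47.7%), and A at position 5 in 34.9% (33.4 to 36.5%), whereas A at position 10 reached 26.6% (25.2 to 28.1%). A at position 10 was split by the first base. It was 25.6% where the first base was U (2888 sequences), 37.8% where it was A (217, interval 31.3 to 44.6%), 32% where it was C (56 of 175) and 25.9% where it was G (263). Over all 655 that do not begin with U it was 31.5% (27.9 to 35.2%), and the neighbouring positions of the same sequences ranged between 21.2 and 36.9%. Over every oriented sequence of 26 to 32 nt that does not begin with U, rare ones included, it was 28.2%. Position 10 of the leading sequences lay inside the range of its neighbours in that set, and its 37.8% in sequences that begin with A lay just above theirs, 19.4 to 35.5%, within its counting error.

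**Figure D3:**
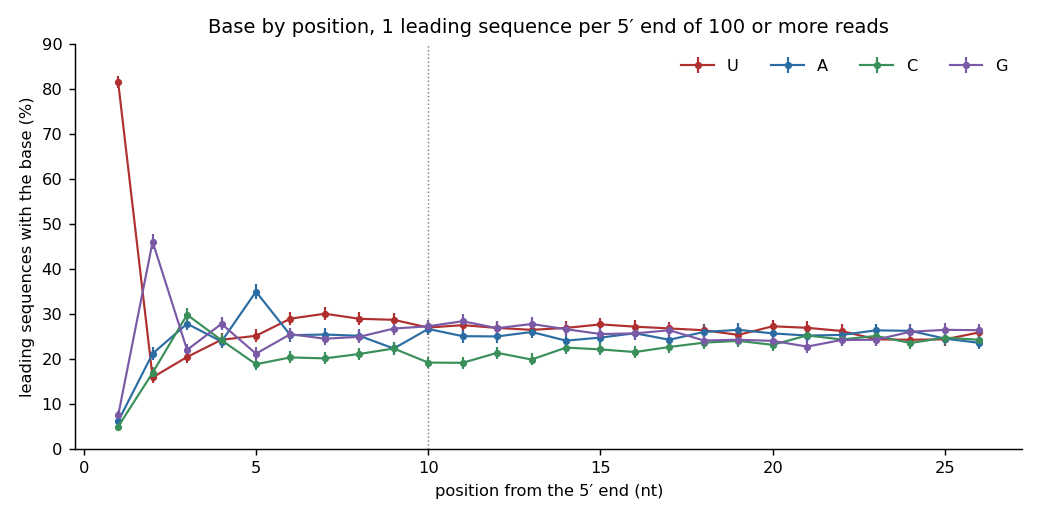
Share (%) of the 3543 leading sequences with U, A, C or G at each position from the 5′ end (nt), with exact 95% intervals as bars. U at position 1 stands at 81.5%, G at position 2 at 46.0% and A at position 5 at 34.9%, and A at position 10 (dotted line) is at 26.6%.

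The 3′ end had its own base pattern. Where a listed longer variant showed what came next (3143 ends), the last base of the most frequent length was C in 32.5% (30.9 to 34.2%), and the base before it was G in 42.3% (40.5 to 44.0%), while A was the commonest a base further in (30.6%). The first base beyond the end was A in 27.6%, G in 27.2%, U in 25.5% and C in 19.6% (18.3 to 21.1%). No base led there, and C was the least frequent.

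Close relatives were sought for the ends of 10 or more reads only. A second 5′ end differing at 1 or 2 of the first 24 letters and having at least 10% of its reads was listed for 2.18% of the ends with 10 to 99 reads, 3.47% of those with 100 to 999 and 3.43% of those with 1000 or more.

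Complementary partners were sought in 3 ways, each chosen or extended with the data in view. Under the main orientation rule they made 12 overlap measures, of which all are given. Alternative settings of these measures, given below and at the end, come on top of the 12. First, pairs were counted whose first 10 nt were complementary at each 5′-end overlap of 10 to 24 nt. Over all 103358 oriented sequences, 39510 ordered pairs overlapped by 10 nt, which was 1.26 times the median of 11 to 24 nt (1.24 times without the listed RNAs), and the highest other overlap, 24 nt, reached 1.15 times. With 1 sequence per 5′ end the ratio was 1.04 and 24 nt was higher, at 1.12. With ends of 10 or more reads it was 1.35 (24 nt: 1.27), and with ends of 100 or more reads 1.98, from 84 pairs at 10 nt against a median of 42.5 (24 nt: 1.29). An excess at 10 nt was thus seen among abundant ends and was not distinct once each end, however rare, counted alike.

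Matches of 10 letters can arise without a shared origin, so the second way asked for more. A pair counted only if another or the same listed sequence held the 14-nt starts of both partners on opposite strands. That links both starts through 1 listed sequence, but without a genome it does not place the partners in 1 locus. With starts of 10 or more reads, 121 pairs overlapped by 10 nt, against 56 to 95 at the other overlaps of 5 to 15 nt. Summing the reads of the less read partner gave 12584 reads at 10 nt, against 2154 to 6429, which is 4.22 times their median. Without the listed RNAs there were 114 pairs and 12328 reads at 10 nt. Over the whole range of 0 to 30 nt, 10 nt was not the highest: 27 nt had 185 pairs and 14405 reads. With starts of any number of reads there were 626 pairs at 10 nt and 969 at 23 nt, and 13711 reads at 10 nt against 15885 at 27 nt. With starts of 100 or more reads there were 17 pairs at 10 nt and 22 at 28 nt, and 9667 reads at 10 nt against 9757 at 27 nt.

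The rise near 27 nt depended on how sequences were oriented. When 95% rather than 80% of the variant reads had to share an end, 3592 reads lay at 10 nt and the next highest overlap, 27 nt, had 754. When whole connected sets of overlapping sequences were given 1 strand together, 11836 reads lay at 10 nt and the next highest, 13 nt, had 3312. In both, 10 nt had the most reads of all overlaps of 0 to 30 nt, whereas pair counts were 19 against at most 15 and 91 against at most 62 at the other overlaps of 5 to 15 nt.

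**Figure D4:**
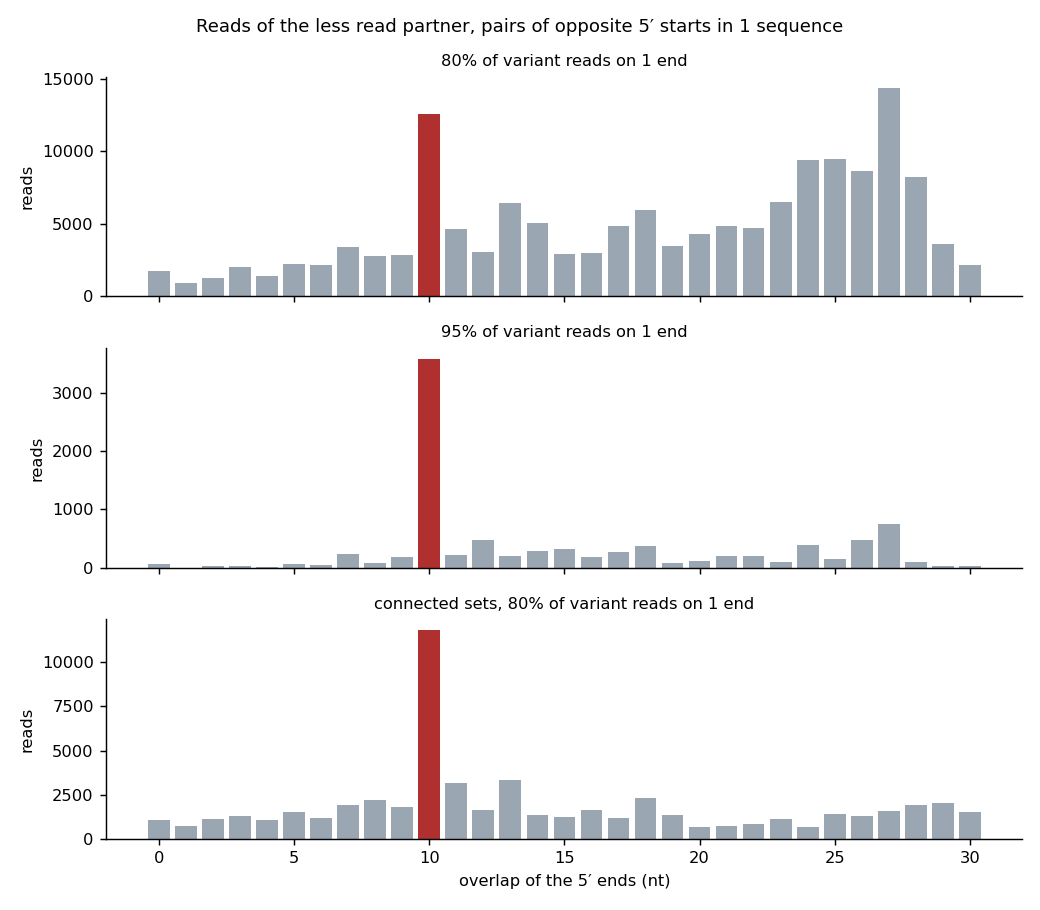
Reads of the less read partner, summed over pairs of 5′ starts of 10 or more reads that lie on opposite strands of 1 listed sequence, by the overlap of the 5′ ends (nt), with 10 nt in red, under 3 ways of orienting. With the 80% rule 12584 reads lie at 10 nt and 14405 at 27 nt, whereas 10 nt is highest with the 95% rule (3592 reads) and with connected sets (11836 reads).

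The third way asked for full complementarity over the overlap and for another listed sequence running 4 nt past it on both sides. It gave 662 pairs and 14100 reads of the less read partner at 10 nt, against 584 to 630 pairs and 3624 to 7489 reads at 11 to 16 nt. With connected sets it gave 13081 reads at 10 nt, against 1272 to 3572 at 11 to 16 nt. Its pairs fell at every step, from 455 at 10 nt and 383 at 11 nt to 218 at 16 nt. A longer overlap needed a longer linking sequence, and overlaps under 10 nt were not counted. The rule itself thus favoured 10 nt, and this fall in pairs cannot be read as a peak there. Reads therefore stood out at 10 nt more than pairs did, and few pairs carried them.

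The 5 pairs with the most reads in the less read partner are printed with the complementary 10 nt of both in capitals, the more read partner first.
pair 1, more read: TTCTCAGTCTggagaccctgttagactag
pair 1, less read: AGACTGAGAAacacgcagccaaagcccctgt
pair 2, more read: TGACTGCGGAaacgagtggggtccccgc
pair 2, less read: TCCGCAGTCAtgctgagtgttgcaaaggt
pair 3, more read: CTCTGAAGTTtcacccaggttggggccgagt
pair 3, less read: AACTTCAGAGactggaactgcttttcctgg
pair 4, more read: TCTGTGCGGTggctccagggttcatgggc
pair 4, less read: ACCGCACAGAtctttgttgggcccctga
pair 5, more read: TTTGCGTCCAgcctctcgctcatcttccgt
pair 5, less read: TGGACGCAAAtaactgttggtgagaga
Pair 1 had 17901 reads at the more read start and 4398 at the other, which was 34.9% of the 12584 reads. It begins with U on one side and A on the other. Because the first 10 nt of partners had to be complementary, U first in one fixes A at position 10 of the other, so the bases at position 10 are no finding in any of these pairs. Pair 2 had 5537 and 1317 reads, and both partners begin with U. Pair 3 had 3185 and 950 reads and begins with C on one side and A on the other, so neither partner begins with U. Pair 4 (2056 and 675 reads) begins with U on one side and A on the other as pair 1 does, and pair 5 (694 and 447 reads) has U first in both.

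These pairs rested on few linking sequences: 1 sequence with 1 read spanned the overlap in each of pairs 1 and 2, 10 sequences with 81 reads in pair 3, and 5 sequences in each of pairs 4 and 5. Without the leading pair of every overlap, 8186 reads remained at 10 nt, against at most 5570 at the other overlaps of 5 to 15 nt, and without the 5 leading pairs 4797 against 3315. Over 0 to 30 nt the highest other overlap was then 25 nt, with 7944 reads without the leading pair and 6659 without the 5, the second of which exceeds the 4797 at 10 nt. Of the 121 pairs, 31 had U first in both partners, 77 in one of them and 13 in neither, so that 89.3% (82.3 to 94.2%) had U in at least 1, against 81.5% (78.6 to 84.1%) of 804 pairs at the other overlaps. The 2 intervals meet. None of the leading sequences of the 10 leading pairs had a read in the dog or horse file. This is not particular to these pairs, since few listed sequences recurred between the files.

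Ranked instead by the number of sequence pairs sharing 10-nt starts, other starts led, of which the first 5 are printed with the 10 nt in capitals.
start 1, more read: TCTAGTTGTAggacttccgttcagccaga
start 1, less read: TACAACTAGAgaattaaaggggaagccaca
start 2, more read: CAGCTGTGAAgaaaagaggaaagactgaag
start 2, less read: TTCACAGCTGcaatcacctaccctacctct
start 3, more read: TGGGAAGTCAgacagaaaggggccttgga
start 3, less read: TGACTTCCCAgtgagctaaagcagcccagc
start 4, more read: TTTCATCTCAgcccaggtgtcttccggtc
start 4, less read: TGAGATGAAAtgaggggaaaggagaaaat
start 5, more read: TGACTGGGAAtcgaacccacgaccctttgg
start 5, less read: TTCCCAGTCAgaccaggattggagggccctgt
Start 1 made 378 pairs, from 63 sequences at 9 different 5′ ends on one side and 6 sequences of 28 reads on the other. That was 1.93% of all, with each pair counted in 1 order only, unlike the ordered pairs above. Start 2 made 187 pairs, start 3 made 182, start 4 made 156 and start 5 made 140. No listed sequence linked the partners of starts 1, 2 and 3, whereas starts 4 and 5 were linked, so the count by pairs was led by starts without such a link.

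Ribosomal RNA fragments were the largest identified class, at 428003 reads or 7.34% of the library (7.32 to 7.36%), and most were 5S rRNA, the smallest rRNA of the large ribosomal subunit. Reference letters for rRNA, 6 tRNA 5′ parts and 27 miRNAs were written from general knowledge and cover 18S and 28S only in stretches, so shares of those are lower limits. The 5S rRNA had 354744 reads (6.09%), 5.8S rRNA 14577 (0.250%), the 18S stretches 27166 (0.466%), the 28S stretches 31516 (0.541%), the tRNA 5′ parts 28852 (0.495%) and the miRNAs 16567 (0.284%). All listed RNAs together made up 8.12% of the reads.

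The 5S fragments came from both ends of the 121-nt RNA. Those ending at positions 119 to 121 held 86.6% of the 5S reads (86.5 to 86.7%), those starting at position 1 held 8.83%, and internal ones 4.59%. Among the 3′ fragments the end was fixed and the start varied. Of all 5S reads, 61.2% ended at 120 and 20.9% at 119, while 27.3% started at 89, 23.9% at 90 and 15.97% at 91. Nothing longer than 32 nt was listed, so a fragment ending at 120 could not start before 89, nor one ending at 119 before 88. Longer 3′ fragments could not be seen, and the most frequent start stood at that limit. The most read ones covered 89 to 120 (69190 reads), 90 to 120 (62291), 91 to 120 (38170), 89 to 119 (26566), 93 to 120 (17448), 96 to 120 (15857), 90 to 119 (15008) and 91 to 119 (13953). The 5′ fragments were led by 1 to 31 (14826 reads) and 1 to 30 (10054), with a fixed start and a varying end. All 307139 reads of the 3′ fragments were listed as the reverse complement of the rRNA and all 31328 reads of the 5′ fragments as the rRNA itself, so listing strand went with the fragment and not with the RNA.

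**Figure D5:**
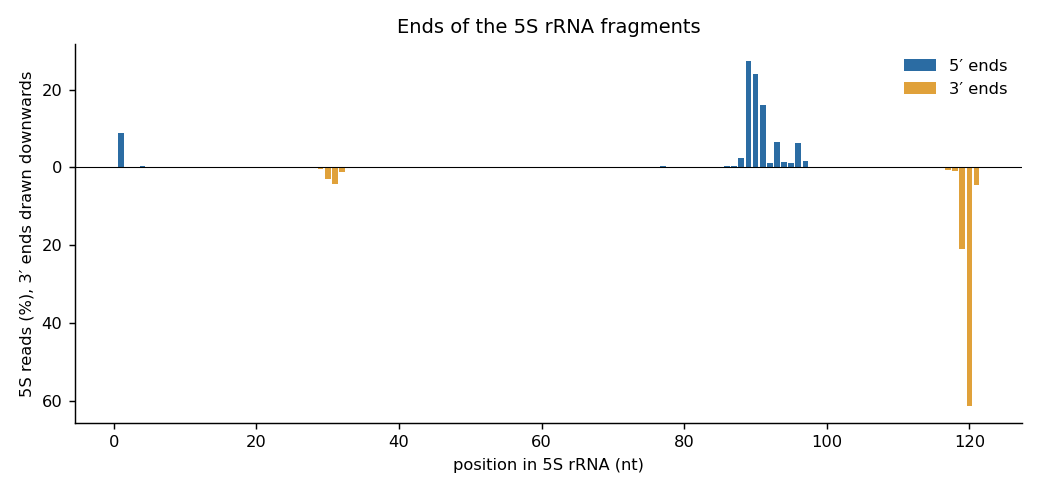
Share (%) of the 354744 5S rRNA reads with their 5′ end (upwards) or 3′ end (downwards) at each position of 5S rRNA (nt). The 3′ ends gather at 120 (61.2%) and 119 (20.9%), the 5′ ends at 89 to 91, and the 5′ fragments begin at position 1 (8.83%). Nothing longer than 32 nt is listed, so no fragment ending at 120 could start before 89.

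The 5S reads were longer than the rest, with 30.9% at 31 nt and 25.5% at 32 nt, the longest listed length, and listed RNAs made up 34.7% of all 32-nt reads against 1.91% of the 29-nt reads. Their leading fragment, 89 to 120, had 69190 reads in bat, 462 in dog and 365 in horse. The 5.8S fragments lay inside the RNA, led by 58 to 82 (3778 reads) and 123 to 150 (2498), and no exact match touched either end, a count that also depends on the reference letters used there, since 5.8S was not matched with mismatches. The most read large rRNA fragment was a 25-nt piece of 18S with 6361 reads. Of the tRNAs, Glu-CTC had 13270 reads and Gly-GCC 11968, and of the miRNAs, miR-30a-5p had 5119, miR-30e-5p 3537, miR-30d-5p 2839 and miR-21-5p 2586, all in forms of 24 nt or more, since shorter reads are not listed.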

How the data were processed

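The bat file, as deposited by the authors, pairs each distinct sequence with a raw read count, per the file headers. It lists 24 to 32 nt only, so its total is not the library's full depth. The submitters' processing notes name Bowtie, RSEM and the build CanFam3.1; the sources used here state no version, adapter trimming or size cut. The mRNA files were not used, and no genome was used, so transposon targets were not analysed here. Identical sequences were summed, sequences linked and oriented (24 shared nt, 80% of at least 10 variant reads), and shares given with exact 95% intervals. With 1 library there was no test between samples. The orientation and pairing steps were tested only on simulated data made with fixed 5′ ends, which does not cover fragments that share a 3′ end. Sequences named are the most read of 26 to 32 nt and of 24 to 25 nt, and the most read rRNA fragments. Named too are the complementary pairs leading by reads and by count. The 10 groups named are the most read oriented ones that neither matched a listed RNA nor lay close to a listed rRNA or tRNA. Members and lists were chosen with earlier results of these data known; the 18S, 28S, tRNA and miRNA lists, the linked-start and full-complementarity pairs and connected sets were added after seeing the data. Python 3.11.15, numpy 2.4.6, pandas 2.3.3, scipy 1.17.1 and matplotlib 3.10.9 were used.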

Additional observations from a re-analysis of the deposited data

How the results depend on the processing

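No paired analysis was possible because each group had 1 library. U at position 1 was 71.8% of oriented reads. It was 83.5% with 95% of variant reads on 1 end, 71.0% with at least 50 variant reads, 70.9% with connected sets, 70.0% over all lengths, 79.5% without the listed RNAs, 48.9% as listed and 58.97% over distinct sequences. A at position 10 without U first was 28.2%, 27.3% with 50 variant reads and 29.6% with at least 2 reads. The 10-nt ratio of 1.26 became 2.05 (95% rule), 1.28 (50 variant reads), 1.35 (connected sets), 1.09 (as listed), 1.45 (at least 2 reads) and 1.04 (1 sequence per 5′ end). The 1000 most abundant sequences held 44.4% of the 26 to 32 nt reads, 43.5% over all lengths and 41.5% without the listed RNAs. Oriented reads were 62.9%, but 28% (95% rule), 56.5% (50 variant reads) and 66.6% (connected sets). The 5S share was 6.09%, and 6.23% with 1 mismatch. The median share of the leading length was 56.5%, against 50.7% (95% rule), 53.2% (50 variant reads) and 58.7% (connected sets). The linked-start ratio by reads was 4.22, and 3.24 (any reads), 8.43 (100 or more reads), 2.95 (without the leading pair), 2.18 (without 5 pairs), 17.1 (95% rule) and 6.89 (connected sets). The full-complementarity ratios, 1.11 by pairs and 2.92 by reads, became 1.60 and 6.60 with connected sets, under a rule that favoured 10 nt. Connected sets and the linked-start and full-complementarity alternatives were chosen after seeing the data. The cause of these shifts was not tested. The other 9 values stayed within the main value's counting interval. A second bat would be needed to give a spread between animals, and rare sequences could mostly not be oriented at this depth.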
